A study of Mus musculus with 6 samples.

Results

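The 10 genes described here make up the thioredoxin and glutaredoxin system: the thioredoxins Txn1 and Txn2, the thioredoxin reductases Txnrd1, Txnrd2 and Txnrd3, the thioredoxin-interacting protein gene Txnip, and the glutaredoxins Glrx, Glrx2, Glrx3 and Glrx5. They were taken by symbol from the 55401 genes of the deposited table, where each has 1 row, and all 10 passed the filter on low counts that left 18931 genes for testing. Liver RNA came from 6 male mice that were 8 weeks old when they started MCD, a diet the labels give only by this abbreviation, and that stayed on it for 5 weeks. All carried floxed Prdx1 alleles. The 3 control mice (Prdx1(lox/lox)) had no Cre, and the 3 knockout mice (Prdx1(lox/lox);Alb-cre) also carried Cre recombinase under the albumin promoter, which is active in hepatocytes. An effect of the Cre transgene cannot be told apart from that of the loss of Prdx1, and without mice on another diet neither can an effect that depends on the diet.

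Thioredoxins are small proteins that reduce disulfide bonds in other proteins and in peroxiredoxins, the peroxide-reducing family to which PRDX1 belongs. Thioredoxin reductases, which contain selenocysteine, then restore thioredoxin with electrons from NADPH. Glutaredoxins draw on glutathione instead, and the monothiol members of the family carry iron-sulfur clusters. TXNIP binds reduced thioredoxin and also limits glucose uptake. In liver its gene is known as a target of the carbohydrate-response factors MLXIPL (ChREBP) and MLXIP (MondoA), which bind DNA together with MLX.

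Deposited counts totalled 58790874 to 78291273 per library, and among the members a single library held from 390 counts (Txnrd3) to 23249 counts (Txnip). Levels are given as CPM, counts scaled to a common library total with TMM factors, or as the deposited FPKM, which is also per length. Prdx1, the deleted gene, measured 626 ± 49.5 CPM without Cre and 88.3 ± 19.6 CPM with it (SD, n = 3 each), lower in all 3 knockouts as the labels require. The quasi-likelihood test of edgeR, with p adjusted by Benjamini-Hochberg at a threshold of 0.05, called 3767 genes higher in knockout livers and 3415 lower. With library sizes alone, without TMM factors, the split was 6459 higher and 1249 lower, and the median log2 fold change over all genes moved from 0.05 to 0.41. With limma on log2(FPKM + 0.5) it was 5653 higher and 1240 lower, with a median of 0.27. The tissue also differed in its cell markers. The summed level of 18 hepatocyte markers was 107788 to 128848 CPM in control livers, against 62704 to 79025 CPM in knockout livers, and 15 of them fell. The sums were 165 to 180 and 1306 to 1463 CPM for 11 cholangiocyte markers, of which 11 rose. They were 1311 to 1512 and 3217 to 3365 CPM for 15 macrophage and Kupffer cell markers (13 rose), and 812 to 919 and 2519 to 2910 CPM for 13 stellate cell and fibroblast markers (12 rose). None of the markers of these 4 cell types was at 0 in all libraries. In bulk liver, fewer cells of a type and less RNA per cell cannot be told apart, and the part of these markers in the results below was not tested.

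Txn1 was the most abundant member per length. In the controls its level was 164, 165 and 186 FPKM, 106 times the level of Glrx2, the lowest member. Txnip at 26.8 ± 15.9 FPKM, Txnrd1 at 24.8 ± 2.92 FPKM, Glrx5 at 22.3 ± 0.267 FPKM and Txn2 at 21.6 ± 0.494 FPKM followed in the control mean (SD, n = 3). The ranges of these 4 genes overlapped from each to the next, so their order is not resolved by the spread. Below them, and without overlap between neighbours, stood Glrx3 at 13.2 ± 0.757, Txnrd2 at 6.84 ± 0.524, Glrx at 4.88 ± 1.19, Txnrd3 at 2.59 ± 0.521 and Glrx2 at 1.61 ± 0.526 FPKM. In the knockouts Txn1 was again first, at 160 ± 10.3 FPKM, and Txnip was second at 76.6 ± 9.81 FPKM, separate in all 3 libraries from Txnrd1 at 25.7 ± 2.26 FPKM. Txn2 and Glrx5 again overlapped, at 14.1 to 17.7 and 13.0 to 17.4 FPKM, and Glrx3, Txnrd2, Glrx, Txnrd3 and Glrx2 kept their order.

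**Figure D1:**
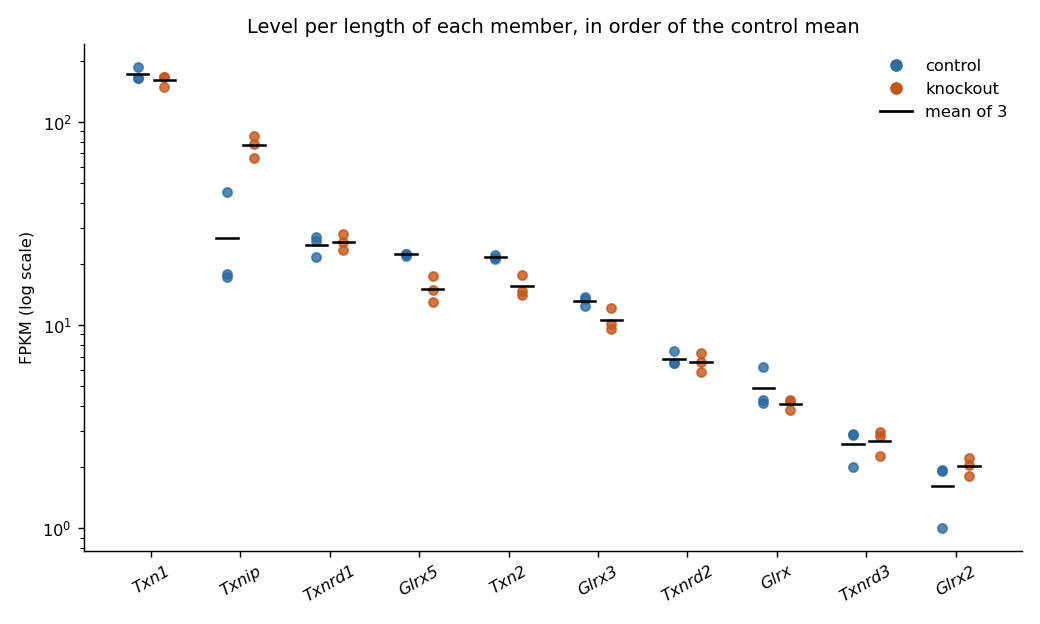
Level per length (FPKM, log axis) of the 10 members, in order of the control mean; each point is 1 library, blue for control and orange for knockout, and the bar is the mean of 3. Txn1 lies highest in both groups, and Txnip is the member whose knockout points (66.1 to 85.6 FPKM) lie farthest above the control points (17.3 to 45.1 FPKM).

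Of the 10 members, 1 rose, 6 fell and 3 did not pass the test in the fit with TMM factors. Among all tested genes 37.9% were called, 19.9% higher and 18.0% lower. The CPM values of the groups did not overlap for 8 members, 7 lower and 1 higher, beside 53.0% of all tested genes, 24.2% lower and 28.8% higher. The median log2 fold change of the members was -0.43, and that of all tested genes 0.05. The number of members that fell depended on the scaling: with library sizes alone 1 rose and 2 fell, where 34.1% and 6.60% of all genes were called, and with limma on log2(FPKM + 0.5) 1 rose and 2 fell, where 38.1% and 8.36% were called. In both of these fits the members that fell were Txn2 and Glrx5 and the member that rose was Txnip.

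**Figure D2:**
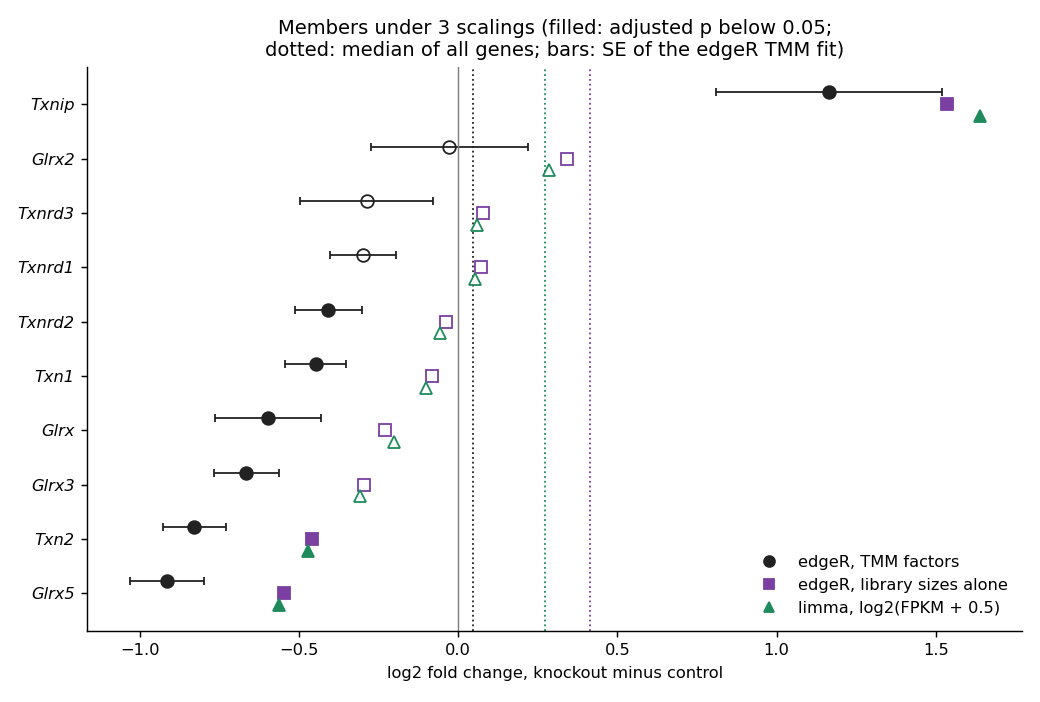
Log2 fold change (knockout minus control) of each member with TMM factors (black circles, bars are SE), library sizes alone (purple squares) and limma on log2(FPKM + 0.5) (green triangles); filled symbols have an adjusted p below 0.05, and dotted lines mark the median of all genes in each fit. Txn2, Glrx5 and Txnip are filled in all 3 fits, and Txnrd1, Txnrd3 and Glrx2 change sign between them.

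Txnip was the only member that rose. Its gene lies on chromosome 3, 96557957 to 96561883, plus strand, in GRCm38 (ENSMUSG00000038393). RefSeq gives 1 promoter window for it, and the 250 bases before the start, chr3:96557707-96557956 (plus strand, GRCm38.p6), are shown because they hold the only match among the members to a paired element of the kind carbohydrate-response factors bind. The motif searched was CACGNG, 5 bases of any kind and CACGNG again, on both strands, a form added after the data were seen. Capitals mark the match, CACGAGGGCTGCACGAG, which lies at -85 to -69 from the start.

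Txnip promoter: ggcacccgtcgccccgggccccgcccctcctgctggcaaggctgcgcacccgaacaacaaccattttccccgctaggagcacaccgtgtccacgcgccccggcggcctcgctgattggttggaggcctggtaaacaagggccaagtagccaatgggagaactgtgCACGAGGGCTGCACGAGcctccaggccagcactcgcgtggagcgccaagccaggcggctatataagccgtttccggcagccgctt

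This form was found in 15 of 32851 RefSeq promoter windows (0.0457%). The perfect form, CACGTG on both sides of the 5 bases, was found in 0 of them. The shorter CACGTG, which also forms each end of the perfect element, was found in 6.02% of all windows and, among the members, only in 1 of the 4 windows of Glrx2. All 10 members had at least 1 of the 16 windows searched. A match describes letters in a window and not binding.

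Txnip had 66.5, 70.4 and 175 CPM in control livers, against 234, 256 and 209 CPM in knockout livers. Every knockout library was above every control library, but control replicate 3 stood well above the other controls. This is a log2 fold change of 1.17 ± 0.35 (SE; adjusted p 0.0346). The difference was past the threshold by library sizes alone (1.53, adjusted p 0.0109) and in FPKM (1.64, adjusted p 0.0110), but not in DESeq2 (1.17, adjusted p 0.0536). The call was lost when any library other than control replicate 3 was left out, while the log2 fold change stayed between 0.93 and 1.25. It was 0.93 and 0.95 without control replicates 1 and 2 (adjusted p 0.0992 and 0.1004), and 1.17, 1.09 and 1.25 without knockout replicates 1, 2 and 3 (adjusted p 0.0828, 0.0965 and 0.0581). Without control replicate 3 the log2 fold change was 1.77, with an adjusted p of 0.000376. Gm15441, on the opposite strand, covers the whole gene, but its counts came to 0.560% of those of Txnip.

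**Figure D3:**
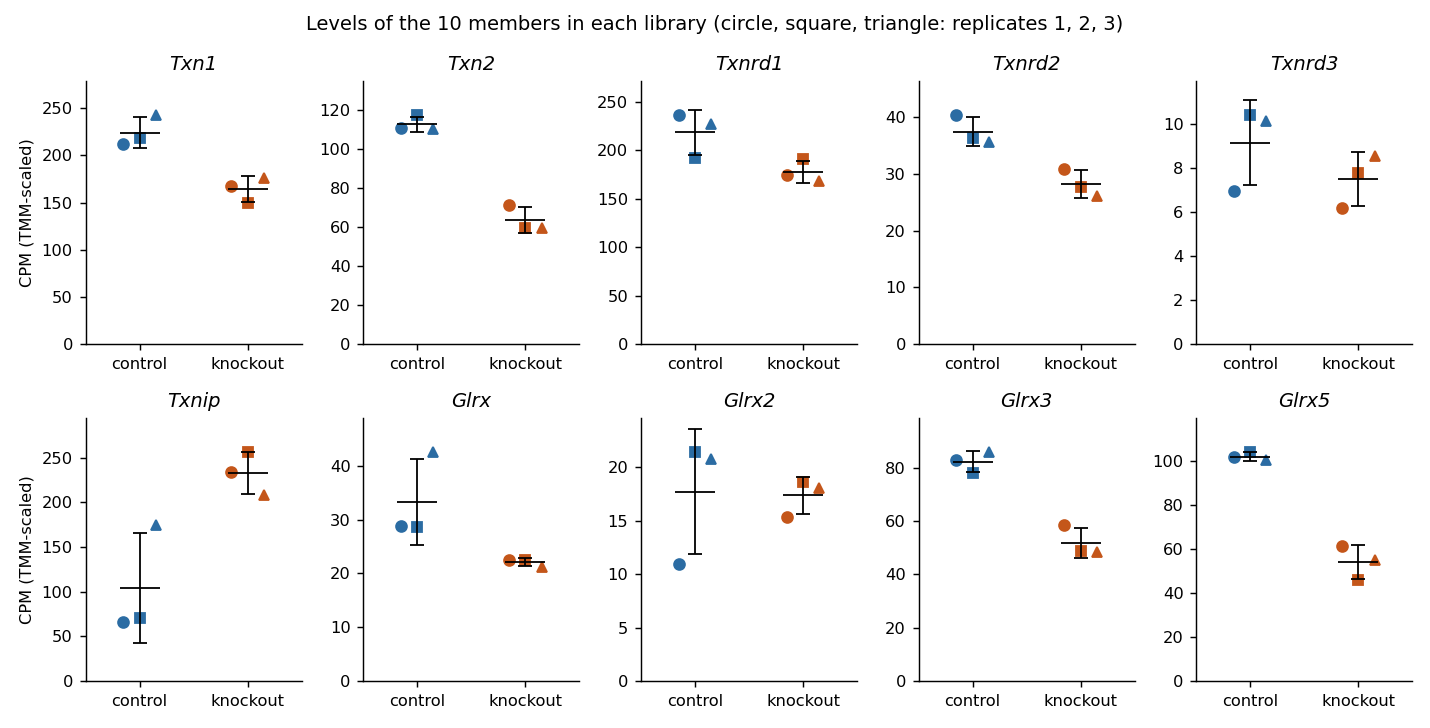
CPM of each member in the 3 control (blue) and 3 knockout (orange) libraries, with circle, square and triangle for replicates 1, 2 and 3, and the black bar and whiskers for mean and SD; each axis starts at 0. In the Txnip panel control replicate 3 (175 CPM) lies between the other controls and the knockouts (209 to 256 CPM), and the groups overlap only for Txnrd3 and Glrx2.

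The genes whose pattern over the 6 libraries was most like that of Txnip were Cdh4, Ankrd23 and Efr3b. Likeness was the root mean square difference of log2 CPM after centring each gene, which was 0.09, 0.12 and 0.13 for them. They were measured at far lower levels than Txnip: Cdh4 at 1.85 ± 1.09 and 4.55 ± 0.174 CPM, Ankrd23 at 2.48 ± 1.19 and 5.91 ± 0.361 CPM, and Efr3b at 0.829 ± 0.365 and 2.10 ± 0.173 CPM in controls and knockouts. They were picked from all tested genes for this likeness.

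The arrestin-domain relatives of Txnip, which like it have an arrestin fold and bind membrane proteins, moved the same way where they passed. Of 4 tested, 2 rose and 0 fell, beside 19.9% and 18.0% of all tested genes. Arrdc1 had 4.98, 6.07 and 7.25 CPM in control livers, against 20.8, 22.3 and 20.5 CPM in knockout livers (1.80 ± 0.16, adjusted p 0.000205). Arrdc4, also a known target of carbohydrate-response factors, went from 17.7 ± 2.61 to 26.8 ± 3.53 CPM (0.60 ± 0.15, adjusted p 0.0167), but did not pass once knockout replicate 2 was dropped (adjusted p 0.0656), which left 1 of the 4. Without control replicate 3, Arrdc2 passed as well (0.76, adjusted p 0.0173), which made 3 of the 4. With all libraries, Arrdc2 and Arrdc3 stood at 0.47 and 0.40 and did not pass. With library sizes alone, all 4 were called higher, but so were 34.1% of all tested genes, whose median was 0.41. Relative to the median of all genes, Arrdc2 stood at 0.42 with TMM factors and 0.42 with library sizes alone. For Arrdc3 these values were 0.36 and 0.35.

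Most genes of a list of carbohydrate-response factors and targets, which holds neither Txnip nor Arrdc4, were lower. Of 14 tested, 0 rose and 12 fell, beside 19.9% and 18.0% of all tested genes. The median log2 fold change was -1.34, beside 0.05 for all tested genes. With library sizes alone 9 fell, with a median of -0.97. Without control replicate 2 the median was -0.92, and without knockout replicate 1 or 3 the count that fell was 9. The factor Mlx, the common partner of MLXIPL and MLXIP, went from 37.1 ± 2.63 to 20.6 ± 1.34 CPM (-0.85 ± 0.10). Ketohexokinase, Khk, which phosphorylates fructose, fell by 1.45 ± 0.18, and the glycerol-3-phosphate dehydrogenase Gpd1 by 1.43 ± 0.10 on the log2 scale, with adjusted p of 0.000765 and 8.03e-05. The members that did not pass, named after their values were seen, were Mlxip, at 23.5 ± 13.4 and 34.6 ± 6.87 CPM, and Pnpla3, at 0.301 ± 0.0683 and 0.631 ± 0.292 CPM. Without control replicate 3, Mlxip was called higher (1.13, adjusted p 0.00681).

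Txn1, the cytosolic thioredoxin, lies on chromosome 4 (57943373 to 57956411, minus strand, ENSMUSG00000028367). It had 212, 219 and 243 CPM in control livers, against 168, 149 and 176 CPM in knockout livers. All 3 knockouts were below all 3 controls, and the log2 fold change was -0.45 ± 0.10 (adjusted p 0.00844). In FPKM the groups overlapped, at 164, 165 and 186 against 167, 148 and 166. The call was kept when each library was left out in turn (adjusted p 0.0131 to 0.0316) and was lost by library sizes alone (-0.08, adjusted p 0.519) and in FPKM (-0.10, adjusted p 0.450). Relative to the median of all genes in each fit, Txn1 stood at -0.49, -0.50 and -0.37 in these 3 fits. The pseudogene Txn-ps1 held 41 counts over the 6 libraries.

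Txn2, the mitochondrial thioredoxin, which serves the mitochondrial peroxiredoxin PRDX3, lies on chromosome 15 (77915047 to 77928974, minus strand, ENSMUSG00000005354). It had 111, 117 and 111 CPM in control livers, against 71.4, 59.7 and 59.9 CPM in knockout livers. The groups lay far apart relative to their spread, and the knockout mean was 56.3% of the control mean. On the log2 scale it fell by 0.83 ± 0.10 (adjusted p 0.000651). Txn2 passed in all 18 alternative fits, with log2 fold changes from -0.91 to -0.46. Prdx3 fell beside it, from 233 ± 2.82 to 117 ± 1.77 CPM (-0.99 ± 0.07, adjusted p 8.24e-05).

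Of the 3 reductases 1 passed the test. Txnrd1, the cytosolic reductase and a classical target of the oxidative stress factor NRF2, lies on chromosome 10 (82833951 to 82897712, plus strand, ENSMUSG00000020250). It had 236, 192 and 227 CPM in control livers, against 174, 191 and 168 CPM in knockout livers, with the lowest control and the highest knockout almost level. Its log2 fold change of -0.30 ± 0.10 did not pass (adjusted p 0.0545), close to the threshold. It passed in DESeq2 (adjusted p 0.0476), with the RLE factors of that tool in edgeR (0.0493) and with counts divided by 4 (0.0487). With library sizes alone the value was 0.07, and without control replicate 2, the lowest control, -0.38 (adjusted p 0.0213). RefSeq gives 3 promoter windows for Txnrd1. The one that ends at its second start, chr10:82858956-82859205 (plus strand, GRCm38.p6), inside the gene, is shown because it was the only window of any member with a match to the antioxidant response element core. The core searched was TGACNNNGC on both strands, which 10.2% of all windows hold. Capitals mark the match, GCTTTGTCA, which is the core read on the other strand, at -92 to -84.

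Txnrd1 promoter, second start: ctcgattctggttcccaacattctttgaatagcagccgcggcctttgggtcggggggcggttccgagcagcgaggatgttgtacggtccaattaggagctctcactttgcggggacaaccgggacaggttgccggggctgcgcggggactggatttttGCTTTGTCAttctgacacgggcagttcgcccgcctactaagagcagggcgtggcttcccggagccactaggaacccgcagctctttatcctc

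Txnrd2, the mitochondrial reductase, lies on chromosome 16 (18426384 to 18479070, plus strand, ENSMUSG00000075704). It had 40.3, 36.3 and 35.7 CPM in control livers, against 30.9, 27.7 and 26.0 CPM in knockout livers, without overlap, and fell by 0.41 ± 0.10 (adjusted p 0.0178). Txnrd2 did not pass without control replicate 1 (adjusted p 0.0607) and without knockout replicates 2 and 3 (0.0632 and 0.0672), and with library sizes alone the value was -0.04. Txnrd3, which also reduces glutathione and is best known from testis, lies on chromosome 6 (89643988 to 89675529, plus strand, ENSMUSG00000000811). It had 6.96, 10.4 and 10.1 CPM in control livers, against 6.19, 7.77 and 8.55 CPM in knockout livers, with overlap, and its log2 fold change of -0.29 ± 0.21 did not pass (adjusted p 0.325; 0.08 with library sizes alone).

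Glrx5, the mitochondrial monothiol glutaredoxin that passes iron-sulfur clusters to other proteins, had the lowest log2 fold change of the members. It lies on chromosome 12 (105032688 to 105042906, plus strand, ENSMUSG00000021102) and had 102, 104 and 100 CPM in control livers, against 61.4, 45.9 and 55.2 CPM in knockout livers. The controls lay within a few CPM of each other and every knockout was far below them. The knockout mean was 53.0% of the control mean, with a log2 fold change of -0.92 ± 0.12 and an adjusted p of 0.000845. Glrx5 passed in all 18 alternative fits, with log2 fold changes from -1.01 to -0.55. The genes most like it over the 6 libraries, by the same measure as for Txnip, were Gcsh, Gramd3 and Hspb6, with root mean square differences of 0.05, 0.06 and 0.06. Gcsh, the lipoate-carrying H protein of the mitochondrial glycine cleavage system, went from 77.1 ± 2.21 to 42.5 ± 4.55 CPM.

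Glrx3, a cytosolic monothiol glutaredoxin with a thioredoxin-like domain, lies on chromosome 7 (137437614 to 137468594, plus strand, ENSMUSG00000031068). It had 82.9, 78.1 and 85.9 CPM in control livers, against 58.4, 49.0 and 48.4 CPM in knockout livers, without overlap, and fell by 0.66 ± 0.10 (adjusted p 0.00196). The call was kept without each library in turn (adjusted p 0.00338 to 0.0113), but not with library sizes alone (-0.30, adjusted p 0.0710) or in the FPKM (-0.31, adjusted p 0.0701). Glrx, the cytosolic dithiol glutaredoxin that removes glutathione from proteins, lies on chromosome 13 (75839868 to 75850154, plus strand, ENSMUSG00000021591). It had 28.8, 28.6 and 42.5 CPM in control livers, against 22.5, 22.4 and 21.2 CPM in knockout livers. Control replicate 3 stood above the other controls, as it did for Txnip. Glrx fell by 0.60 ± 0.17 (adjusted p 0.0242), a call that was lost with library sizes alone (-0.23, adjusted p 0.325). It was also lost without knockout replicates 1, 2 and 3 (adjusted p 0.0678, 0.0661 and 0.0755), at log2 fold changes of -0.61, -0.61 and -0.56. Without control replicate 3 Glrx still passed, at -0.38 (adjusted p 0.0294).

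Glrx2, a dithiol glutaredoxin of mitochondria and nucleus, lies on chromosome 1 (143716338 to 143749676, plus strand, ENSMUSG00000018196). It had 10.97, 21.4 and 20.8 CPM in control livers, against 15.4, 18.6 and 18.1 CPM in knockout livers. The controls spread more widely than the knockouts and enclosed them. The log2 fold change was -0.03 ± 0.25 (adjusted p 0.944), and its sign turned in the fit by library sizes alone (0.34) and in FPKM (0.28).

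Ratios between members within a library do not depend on how libraries are scaled. The ratio of Txnip to Txn1 in FPKM was 0.106, 0.108 and 0.242 in control livers, against 0.468, 0.577 and 0.399 in knockout livers. Every knockout was above every control, and the difference of 1.76 in log2 had an exact two-sided permutation p of 0.1, the smallest that 3 against 3 allows. The ratio of Txn2 to its reductase Txnrd2 was 2.88, 3.39 and 3.24 in control livers, against 2.42, 2.26 and 2.41 in knockout livers, again without overlap (-0.42 in log2, exact two-sided p = 0.1). The ratio of Txn1 to Txnrd1 was 6.05, 7.67 and 7.19 in control livers, against 6.51, 5.29 and 7.04 in knockout livers, and these overlapped (-0.15 in log2, exact two-sided p = 0.4). Over these 3 ratios, no exact p could pass 0.05.

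**Figure D4:**
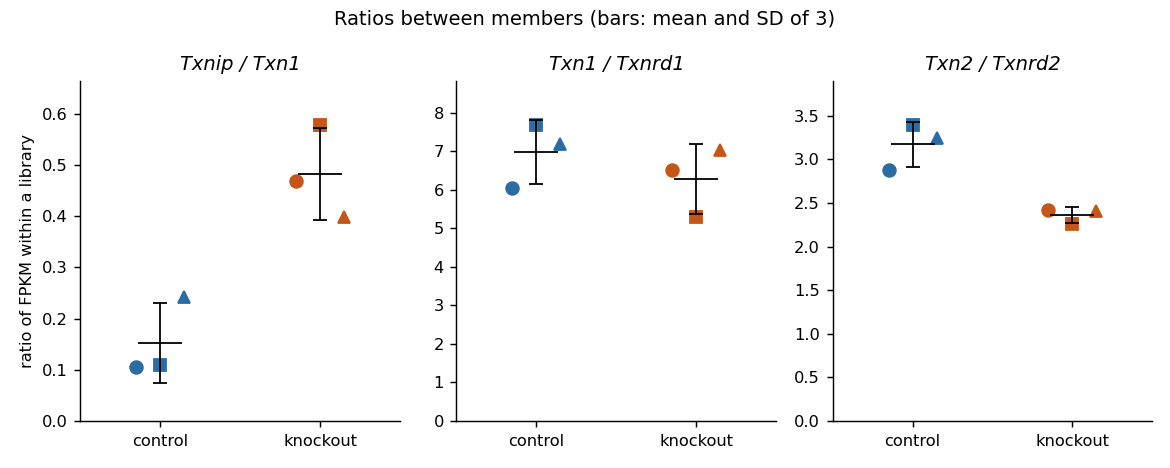
Ratio of FPKM between members in each library for Txnip to Txn1, Txn1 to Txnrd1 and Txn2 to Txnrd2; symbols mark replicates 1 to 3, and the bar and whiskers give mean and SD of 3. The groups are separate for Txnip to Txn1 (0.106 to 0.242 against 0.399 to 0.577) and for Txn2 to Txnrd2 (2.88 to 3.39 against 2.26 to 2.42), and overlap for Txn1 to Txnrd1.

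Enzymes and partners that thioredoxin reduces or binds went both ways. Of 17 tested, 3 rose and 8 fell (Prdx1 itself among those that fell), beside 19.9% and 18.0% of all tested genes. The ribonucleotide reductase subunit Rrm2 fell from 15.8 ± 0.679 to 4.18 ± 1.09 CPM (-1.91 ± 0.20) and the methionine sulfoxide reductase Msrb1, a selenoprotein, from 256 ± 12.4 to 130.005 ± 13.6 CPM (-0.98 ± 0.10). Those that rose, singled out once values were known, were the p53-regulated subunit Rrm2b at 0.75, the sulfoxide reductase Msrb3 at 0.47 and Nlrp3, an inflammasome sensor of myeloid cells that TXNIP is known to bind, which went from 4.09 ± 0.941 to 9.19 ± 1.60 CPM (1.17 ± 0.22, adjusted p 0.00493). The macrophage markers rose beside Nlrp3 (sums of 1311 to 1512 and 3217 to 3365 CPM), and their part in its change was not tested.

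Other proteins with a thioredoxin domain also went both ways. Of 23 listed, 6 had no counts in any library. Of the 17 tested 2 rose and 5 fell, beside 19.9% and 18.0% of all tested genes. Txndc5, an ER disulfide isomerase, fell from 422 ± 22.5 to 220 ± 11.6 CPM (-0.94 ± 0.08), the cytosolic Txnl1 from 162 ± 13.6 to 91.5 ± 7.76 CPM (-0.82 ± 0.10) and Txndc11 from 62.3 ± 4.21 to 34.6 ± 0.978 CPM (-0.85 ± 0.09). Txndc16 rose from 8.23 ± 1.37 to 18.6 ± 1.35 CPM (1.17 ± 0.16). The other calls, singled out once values were known, were Nxn (1.23), Txndc12 (-0.44) and Txndc15 (-0.29, and 0.07 with library sizes alone). Without control replicate 1 or knockout replicate 2, 3 of them fell. The median of the list was -0.22 with TMM factors and 0.15 with library sizes alone.

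Genes of glutathione synthesis, recycling and breakdown, the supply on which glutaredoxins draw, were listed together. Of 8 tested, 7 fell and 0 rose with TMM factors, beside 18.0% and 19.9% of all tested genes, with a median of -0.80. The count that fell was 5 to 6 when any 1 library was left out. With library sizes alone 1 fell, with a median of -0.43. Gclc, the catalytic subunit of the first step of glutathione synthesis, went from 547 ± 132 to 315 ± 31.3 CPM (-0.80 ± 0.18) and Gss, the second enzyme, from 204 ± 16.3 to 135 ± 14.3 CPM (-0.60 ± 0.11). Ggct and Chac2, which degrade gamma-glutamyl peptides and glutathione, fell by 0.81 and 0.89. Gclm, named after its value was seen as the 1 that did not pass, had 131 ± 88.7 and 122 ± 78.0 CPM.

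Iron-sulfur cluster genes, the setting in which GLRX5 and GLRX3 work, were lower in part. Of 30 tested, 17 fell and 2 rose, beside 18.0% and 19.9% of all tested genes, with a median of -0.40. With library sizes alone 3 fell and 3 rose, with a median of -0.03. The count of those that fell was 8 without knockout replicate 3, 10 without knockout replicate 2 or control replicate 1, and 11 without knockout replicate 1. The ferredoxin Fdx1 fell from 60.6 ± 3.82 to 34.5 ± 3.21 CPM (-0.82 ± 0.10), the acyl carrier protein Ndufab1 from 53.3 ± 11.1 to 25.8 ± 1.89 CPM (-1.04 ± 0.15) and the late-acting Isca1 from 90.1 ± 11.6 to 54.0 ± 5.30 CPM (-0.74 ± 0.12). Mms19, of the cytosolic targeting complex, rose from 27.4 ± 1.51 to 40.7 ± 0.963 CPM (0.57 ± 0.09). The other that rose was Hscb (0.68), singled out once values were known, and it did not pass when any library but control replicate 3 was dropped (adjusted p 0.0714 to 0.157).

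Selenoprotein genes, to which the 3 reductases belong, were split. Of 10 genes that make or insert selenocysteine, 6 fell and 0 rose, beside 18.0% and 19.9% of all tested genes. The count that fell was 4 to 5 when any 1 library was left out, and 2 with library sizes alone. The elongation factor Eefsec fell by 0.90 ± 0.11, the selenocysteine lyase Scly by 0.82 ± 0.11, the selenophosphate synthetase Sephs2 by 0.75 ± 0.16 and the SECIS-binding Secisbp2 by 0.51 ± 0.11 on the log2 scale. Of 19 selenoprotein genes tested besides the reductases, 10 fell and 3 rose (4 and 5 with library sizes alone). Sephs2 and Msrb1, already counted in lists above, were among the 10 that fell. The median of these 19 was -0.34, or 0.03 with library sizes alone. The deiodinase Dio1 went from 68.0 ± 18.8 to 6.78 ± 2.96 CPM (-3.32 ± 0.34), and the ER protein Selenos from 124 ± 4.70 to 66.2 ± 5.50 CPM. Selenon rose from 8.68 ± 1.32 to 30.8 ± 2.36 CPM (1.83 ± 0.14). The others that rose, singled out once values were known, were the secreted peroxidase Gpx3 (18.5 ± 0.967 to 122 ± 52.0 CPM) and Selenom (2.25 ± 0.772 to 10.4 ± 1.68 CPM). Without control replicate 3, 5 of the list rose, and 8 to 9 fell when any 1 library was left out.

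Genes of NRF2 and its classical targets, in a list that does not hold Txnrd1, went both ways. Of 23 tested, 2 rose and 7 fell, beside 19.9% and 18.0% of all tested genes. Their log2 fold changes had a median of -0.16 in the fit with TMM factors and of 0.20 in the fit by library sizes alone. Sulfiredoxin, Srxn1, which repairs overoxidised peroxiredoxins, had 243, 426 and 478 CPM in control livers, against 162, 181 and 157 CPM in knockout livers (-1.20 ± 0.23, adjusted p 0.00517). The malic enzyme Me1 fell by 1.62 ± 0.17 and the transketolase Tkt by 0.43 ± 0.08. Glucose-6-phosphate dehydrogenase, G6pdx, the entry to the pentose phosphate pathway, rose from 19.2 ± 0.754 to 33.7 ± 1.16 CPM (0.81 ± 0.09, adjusted p 0.000553), and Akr1b8, singled out once values were known, rose by 0.56. Without control replicate 3, 4 of the list rose, and without knockout replicate 3, 1 rose.

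Enzymes that make the NADPH used by the reductases went both ways. Of 15 tested, 2 rose and 8 fell with TMM factors, beside 19.9% and 18.0% of all tested genes. The median was -0.47, and 5 fell without knockout replicate 1. With library sizes alone 3 rose and 4 fell, with a median of -0.10, and of 13 tested in limma on log2(FPKM + 0.5) 2 rose and 4 fell. Mitochondrial Idh2 went from 202 ± 20.2 to 98.0 ± 9.40 CPM (-1.05 ± 0.11) and the mitochondrial NAD kinase Nadk2 from 195 ± 3.999 to 87.8 ± 7.31 CPM (-1.15 ± 0.09). G6pdx rose, as given above, and so did the mitochondrial malic enzyme Me2, named after its value was seen, from 7.82 ± 0.218 to 15.1 ± 0.520 CPM. The hepatocyte markers fell beside all of these lists (15 of 18, with a median log2 fold change of -0.70), and their part was not tested.

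**Figure D5:**
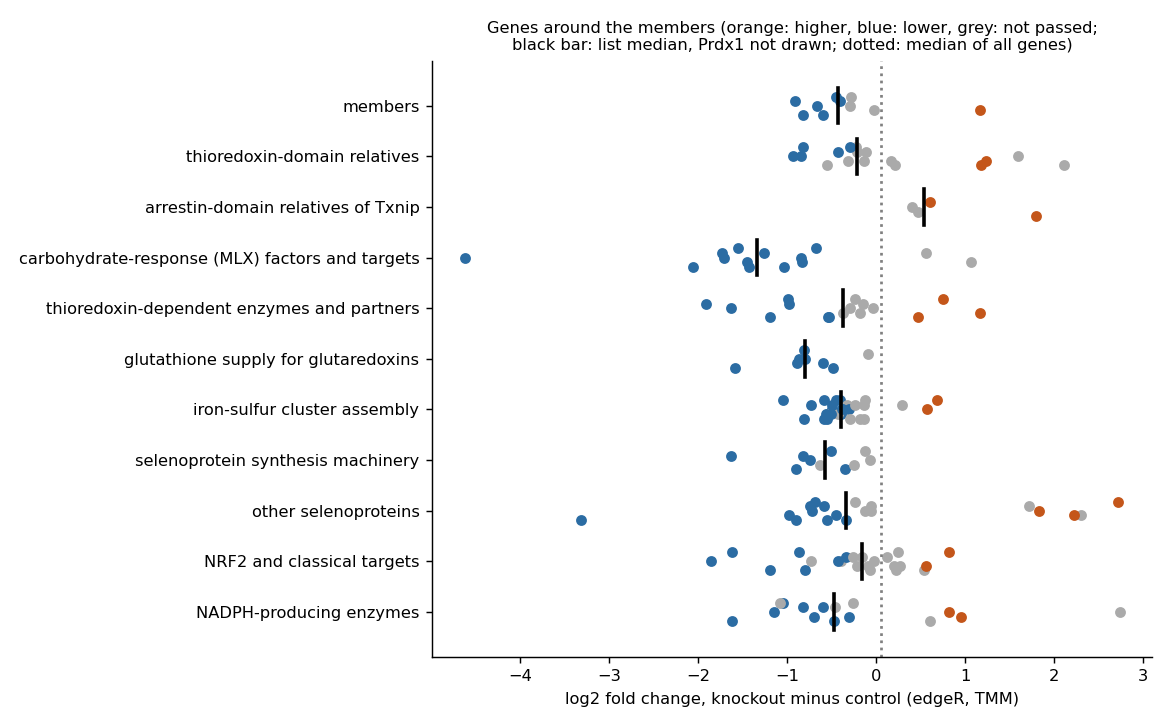
Log2 fold change (knockout minus control, TMM factors) of every tested gene in the members and in the 10 lists around them; orange points were called higher, blue lower and grey did not pass, the black bar is the list median and the dotted line the median of all genes (0.05). Prdx1 is not drawn. The carbohydrate-response list has the lowest median (-1.34) and the arrestin-domain list the highest (0.54).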

How the data were processed

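Liver RNA from 6 mice (3 per genotype) was sequenced from poly(A) libraries with dUTP strand marking, per the labels' protocols. The deposited table holds 1 estimated count and 1 FPKM value per gene and library, both made by the authors. The submitters' processing notes name the build mm9 and, without roles, StringTie 1.3.4d, UMI-tools, HISAT2 2.0.4, edgeR, cutadapt 1.9 and DESeq2. Gene positions are those of GRCm38: of 55141 identifiers found in GENCODE M21, 94.2% had the same position. Columns named wt were taken as Prdx1(lox/lox), the only other genotype. The deposited counts are handled as estimated because their low values pile up at multiples of 4 (854 genes at 4 in control 1, against 280 at 3 and 167 at 5). Depth in molecules is therefore unknown, and no counting intervals are given.

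Counts were analysed with edgeR 4.0.16 in R 4.3.3: filterByExpr (minimum count 10, total 15), TMM factors, genotype as the only term, and a two-sided quasi-likelihood test with Benjamini-Hochberg adjustment over 18931 genes at 0.05. SE values come from the F statistic. Alternatives were DESeq2 1.42.0, limma 3.58.1 on log2(FPKM + 0.5, 0.1 or 1) with or without a filter of 0.5 FPKM in 3 libraries, other scalings and count filters, counts divided by 4, a replicate block and leaving out each library. A simulation of 18931 genes gave a true 2-fold change to only 100 genes and a true 4-fold change to another 100. There edgeR recovered 33% of the former and 68% of the latter. Of its calls 10.6% were false, a share above the threshold of 0.05. In the measured data 37.9% of tested genes were called, so the adjustment gave a different cut-off on p. The simulated rates therefore do not give the recovery or the share of false calls in the measured data. The different cut-off does not account for a simulated share of false calls above 0.05, and its cause was not tested.

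The members and lists were chosen with earlier results of these data known, and the lists share some genes. Named in each list were up to 4 genes with the smallest p, and for the 2 called members with the largest changes the 3 nearest patterns. Promoters are RefSeq windows (GRCm38.p6) cut to the 250 bases before the start. The labels give no litter or batch, and the p-values measure the spread among these mice. A search of the proteins for active-site motifs was not run. Whether counting used strand is not given in the sources used here. Some genes are not reported here.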

Additional observations from a re-analysis of the deposited data

How the results depend on the processing

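Txn2 and Glrx5 kept their direction and passed in all 18 alternative fits. Over all members and alternatives, 124 of 180 values kept direction and call, 32 lost the call, 4 gained it and 20 turned sign. The causes were not tested. Genes called higher numbered 6459 with library sizes alone, 5653 and 5701 with limma on log2(FPKM + 0.5) and on log2(FPKM + 1), and 6277 with limma without the filter, and genes called lower numbered 1249, 1240, 1302 and 1154 in the same fits and 1122 on log2(FPKM + 0.1). In each of these 5 fits 2 members were called lower. In DESeq2 0 members were called higher. Leaving out 1 library gave 0 to 1 members higher and 4 to 7 lower. Signs turned for members that had not passed. Txnrd1 stood at 0.070 with library sizes alone and at 0.053, 0.054, 0.052 and 0.053 in limma (pseudocounts 0.5, 0.1 and 1, and no filter). Txnrd3 stood at 0.079 with library sizes alone and at 0.058, 0.068, 0.049 and 0.058 in the same limma fits. Glrx2 stood at 0.34 with library sizes alone, 0.28, 0.36, 0.23 and 0.28 in the same limma fits, 0.028 with upper-quartile factors and from -0.28 to 0.13 without 1 library. Txndc15, which had passed, stood at 0.073 with library sizes alone and at 0.050, 0.052, 0.048 and 0.050 in limma, and Gclm at 0.25 with library sizes alone, 0.13, 0.12, 0.13 and 0.13 in limma and from -0.48 to 0.62 without 1 library.

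With the replicate number as a block, 3269 genes were higher and 3207 lower, 1 member rose and 6 fell, and Glrx2 stood at 0.026. The labels give the numbers no shared source, and same-numbered libraries correlated at 0.02, 0.06 and 0.04 in their deviations from the group means, although each library correlated best with its own number. No call of a member changed with the block. The order of members per length was the same with FPKM scaled to a common total and, added after seeing the data, with counts per union exon length, and the ratios kept their direction in all alternatives run.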

Other observations

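Control replicate 3 stood apart from the other controls for several genes around Txnip, chosen here after their values were seen. Txnip had 175 CPM in it, against 66.5 and 70.4 CPM in the others. The factor gene Mlxip had 38.9 CPM in it, against 14.2 and 17.5 CPM, and the glutathione synthesis gene Gclm 233 CPM, against 84.1 and 75.6 CPM. For Arrdc4 control replicate 3 did not stand apart: it had 15.0 CPM, against 17.8 and 20.3 CPM in the others. These are values of 1 mouse, and no test was made of them.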
